A study of Mus musculus with 3 samples.

Results

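The genes described here are 38 interferon-stimulated antiviral genes of the mouse, the targets that type I interferon switches on to restrict virus replication. They were chosen by name as known interferon targets, without the STAT and IRF transcription factor genes that sit upstream of them. Of the 38, 35 had a probe set of their own on the array, out of 19938 genes so measured. Isg15 and Gbp2 were matched only by probe sets shared with another gene, Ifi44 was matched by none, and all 3 were not analysed here.

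The values come from 3 Affymetrix arrays of thymocytes that carry both CD4 and CD8, the double-positive (DP) stage of T cell development. All 3 samples are one group, from wild-type C57BL/6 mice of 5 to 6 weeks with no treatment named, and cohorts of littermates served as replicates (arrays 1, 2 and 3). Cells were purified with magnetic beads, by CD8 in a first step and by CD4 in a second one. The protocol crosslinks thymocytes with formaldehyde before the beads, and leaves unsaid if that applies to the cells used for RNA. No mutant, treated or infected sample is among the arrays used here, so the comparisons are with the other genes on the same arrays and between the 3 cohorts.

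Interferons bind a receptor made of Ifnar1 and Ifnar2, the kinases Jak1 and Tyk2 then phosphorylate Stat2, and Stat2 and Irf9 are subunits of the complex ISGF3 that forms. ISGF3 binds an element with repeated GAAA letters near the start of its target genes. Cells of many tissues also transcribe part of this set without infection, from the low interferon signal that healthy tissue keeps up or through IRF factors that act without interferon.

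A value here is the log2 expression value of a probe set, as deposited. It depends on how strongly the probes bind as well as on the RNA. Genes on different sides of a limit thus need not differ in RNA, and a value under it does not show absence. To set a background, 99 genes that mark other organs, such as liver or testis, were read on the same arrays, and a gene was called above background on an array if it was over their 95th percentile there. That limit was 7.35, 7.22 and 7.23 on arrays 1, 2 and 3. The samples carried the DP markers, with all 8 of Cd4, Cd8a, Cd8b1, Rag1, Rag2, Dntt, Ptcra and Cd3e above background on every array. Over 28944 probe sets arrays 2 and 3 correlated at 0.996 (Pearson), and array 1 correlated with each of them at 0.993. Array 1 also stood apart in Xist, the female-specific RNA that silences an X chromosome (11.65, 5.40 and 5.68 on arrays 1, 2 and 3), and in Fos (9.39, 7.86 and 8.27), an immediate-early gene. The Y-linked genes Eif2s3y (4.21, 10.29 and 10.08), Kdm5d and Uty were low on array 1 and high on arrays 2 and 3. Array 1 thus differs from arrays 2 and 3 in sex as well as in cohort. The number of arrays limits the precision, and in sorted bulk cells a larger share of expressing cells and more RNA per cell cannot be told apart.

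The antiviral set was split by the background limit in these cells. Of the 35 measured genes, 21 were over the limit on each of the 3 arrays, against 42.4% of all measured genes. A further 13 were over it on no array, against 54.1% of all genes, and Usp18 was over it on array 2 alone. The median of the 35 genes' 3-array means was 7.64, against 6.85 over all genes. The genes above background were mostly sensors, ADP-ribosyltransferases, ubiquitin ligases and nuclear body genes. The genes below it included most of the IFIT, OAS and Mx genes. Ifit2, Oasl1, Herc6, Zbp1, Bst2 and Rtp4 were above it on all arrays. With the 99th percentile of the organ genes as the limit, 14 of the 35 stayed above it, against 36.1% of all genes, and the 7 that dropped out were Oasl1, Ifih1, Eif2ak2, Parp12, Isg20, Samd9l and Rtp4. With the organ genes' median plus 1 log2 unit, 22 of the 35 were above, against 49.6% of all genes.

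**Figure D1:**
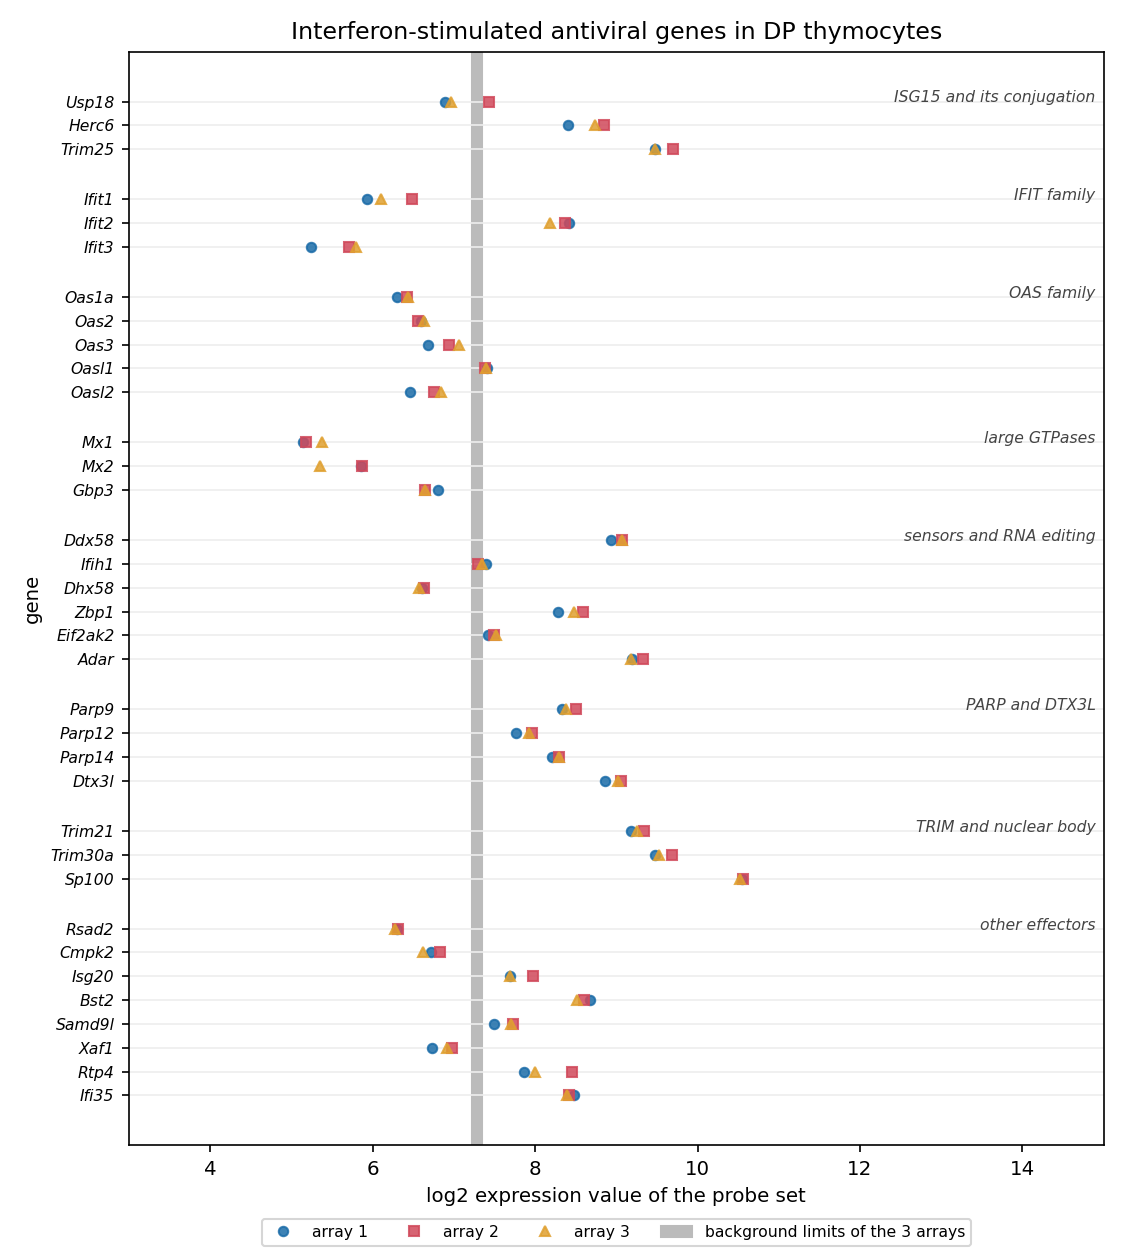
Log2 expression values (x axis) of the 35 measured antiviral genes (rows, grouped by role) on each of the 3 arrays, shown as circles, squares and triangles. The grey band spans the background limits of 7.22 to 7.35. The PARP, TRIM and Sp100 genes lie to its right on every array, and Ifit1, Ifit3, Mx1 and Mx2 lie to its left.

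Among the set's measured genes for attaching the ubiquitin-like protein ISG15 to other proteins or removing it, 2 of 3 lay above background on all arrays. Of all genes, 42.4% did. Herc6, the main ISG15 ligase of the mouse, had 8.41, 8.85 and 8.74 on arrays 1, 2 and 3. Trim25, a ubiquitin ligase that acts on the RNA sensor RIG-I, had 9.48, 9.70 and 9.48. Usp18 removes ISG15 and also binds the interferon receptor to damp its signal. It had 6.89, 7.43 and 6.96, so it exceeded the limit on array 2 and by only a small margin there. Uba7 and Ube2l6, which are outside the set, encode the first and second enzymes of ISG15 conjugation. They lay on opposite sides of the limit. Uba7 had 8.07, 8.26 and 8.17, and Ube2l6 had 6.37, 6.49 and 6.17.

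The IFIT proteins bind foreign RNA and block its translation, and the probe sets of their genes fell on both sides of the limit. Ifit2 had 8.42, 8.37 and 8.18 and lay above background on every array. Ifit1 had 5.93, 6.48 and 6.10 and Ifit3 had 5.24, 5.71 and 5.80, and neither exceeded the limit on any array. The 3-array mean of Ifit1 lay above 63.6% of the organ genes and that of Ifit3 above 41.4%, so both sat well inside the range of the organ genes.

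The OAS enzymes make the short oligoadenylates that activate RNase L. Of 5 OAS genes, Oasl1 alone was over the limit, on every array. Of all genes, 42.4% were over it on every array. Oasl1, which in the mouse restrains translation of Irf7, had 7.41, 7.38 and 7.40, close to the limits, with an SD of 0.02 (n = 3). Oas1a had 6.30, 6.42 and 6.43, Oas2 had 6.60, 6.56 and 6.63, Oas3 had 6.68, 6.94 and 7.06, and Oasl2 had 6.46, 6.76 and 6.84. The 3-array mean of Oas3 lay above 91.9% of the organ genes and that of Oas1a above 71.7%.

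None of the 3 measured large GTPases exceeded background on any array, which held for 54.1% of all genes. Mx1 and Mx2 encode dynamin-like proteins that trap viral nucleoproteins, and most inbred mouse strains, C57BL/6 among them, carry a defective Mx1 allele. Mx1 had 5.14, 5.18 and 5.38 and Mx2 had 5.85, 5.87 and 5.35, with means above only 27.3% and 45.5% of the organ genes. Gbp3, of a guanylate-binding protein family that interferon gamma also induces, had 6.81, 6.65 and 6.65. IFIT, OAS, Mx and Gbp genes have close relatives in the mouse, and a probe set may read more than one of them.

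Of the set's 6 genes for nucleic acid sensing and RNA editing, 5 were over the limit on all arrays, against 42.4% of all genes. With the 99th percentile limit 3 of the 6 were, against 36.1%. Outside the set, the DNA sensor gene Mb21d1 and the endosomal receptor genes Tlr3, Tlr7 and Tlr9 were below the limit on every array. Ddx58, which encodes the RNA sensor RIG-I, had 8.94, 9.07 and 9.07. Its relative Ifih1, which encodes MDA5, stood close to the limit with 7.39, 7.30 and 7.35. The third member of that helicase family, Dhx58 (LGP2), regulates the other two and was below the limit on every array, with 6.61, 6.63 and 6.57. Zbp1, a sensor of left-handed nucleic acid helices that can trigger necroptosis, had 8.28, 8.59 and 8.48. Eif2ak2 encodes the kinase PKR, which halts translation on double-stranded RNA, and it had 7.42, 7.49 and 7.52. Adar, which edits adenosines in double-stranded RNA and keeps a cell's own RNA from triggering MDA5, had 9.19, 9.33 and 9.18.

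The 4 ADP-ribosylation genes were all above background on every array, against 42.4% of all genes. With the 99th percentile limit 3 of them were, against 36.1%. Parp9 and its partner Dtx3l, a ubiquitin ligase, had 8.33, 8.50 and 8.38 and 8.86, 9.06 and 9.02. Parp14 had 8.21, 8.29 and 8.29, and Parp12, a mono-ADP-ribosyltransferase, had 7.76, 7.96 and 7.92. Their SDs ran from 0.05 to 0.11 (n = 3).

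Trim21, an intracellular antibody receptor, had 9.18, 9.34 and 9.26, and Trim30a, a mouse TRIM protein, had 9.47, 9.69 and 9.52. Sp100, a component of PML nuclear bodies, had 10.55, 10.56 and 10.52, and its SD of 0.02 exceeded that of only 5.7% of the 500 genes nearest in mean level. These 3 genes were above background on every array, against 42.4% of all genes. All 3 stayed above the 99th percentile limit as well, against 36.1%.

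Of 8 further effectors, 5 lay above background on all arrays, against 42.4% of all genes. With the 99th percentile limit 2 of the 8 did, against 36.1%. Bst2, the tetherin that holds budding virions at the membrane, had 8.67, 8.60 and 8.52. Ifi35, a modulator of innate signalling, had 8.48, 8.42 and 8.39. Rtp4, a receptor chaperone that is also an antiviral protein, had 7.86, 8.45 and 8.0, and Isg20, an RNA exonuclease, had 7.69, 7.98 and 7.69. Samd9l, a growth suppressor and host restriction factor, had 7.49, 7.73 and 7.70. The 3 below the limit on every array were Rsad2 (viperin), an enzyme that makes a chain-terminating nucleotide, with 6.30, 6.31 and 6.27, Cmpk2, a mitochondrial nucleotide kinase, with 6.72, 6.83 and 6.62, and Xaf1, a cell death regulator, with 6.73, 6.98 and 6.92.

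Genes that lie side by side in the genome did not always fall on the same side of the limit. In the RefSeq order of protein-coding genes, several measured genes of the set are direct neighbours. Parp9, Dtx3l and Parp14 on chromosome 16 were all above background, whereas Cmpk2 and Rsad2 on chromosome 12 were both below it, as were Oas2 and Oas3 on chromosome 5. Ifit2 and Ifit3 on chromosome 19 were split, and so were Oasl1 and Oasl2 on chromosome 5.

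The start regions of the set differed in the interferon element. RefSeq promoter sequences, which run from 250 bases before a gene's start to 50 after it (GRCm38.p6), were held for 29 of the 38 genes. They were searched on both strands for the core of the ISGF3 element, which is GAAA, then any 2 bases, then GAAA, and neighbouring matches may overlap. It was found for 14 of the 29 genes, against 3.99% of 27025 RefSeq genes. Of the genes above background on no array, Oas2, Mx1, Mx2 and Dhx58 had no promoter sequence. It was also missing for Zbp1, Parp9, Parp14 and Rtp4, above background on all arrays, and for Usp18. Of the 9 genes with a promoter sequence that were above background on no array, 6 had a match that lay wholly before the start. The same held for 2 of 17 genes above background on all arrays and for 3.46% of all genes. A further 4 genes above background, Ddx58, Eif2ak2, Ifih1 and Trim21, had their matches within the 50 bases after the start, at positions 3, 19, 33 and 14 for the first match of each. Over the whole window, 6 of 12 measured genes with a match were above background on all arrays and 11 of 14 without one. Over all genes with a promoter sequence those shares were 40% and 44.2%. Since the genes were chosen as interferon targets, these counts are descriptions, and a match is a string of letters and not a shown binding site.

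The 10 upstream windows that hold the element show how differently it is placed. They are given 5′ to 3′ on the gene's own strand, in lower case with the matches in capitals, so that an element on the opposite strand reads TTTC, any 2 bases, TTTC. The genes above background on no array come first, then the pair above background, then the pair without a probe set of their own.
Ifit1, chr19:34640773-34640825, + strand: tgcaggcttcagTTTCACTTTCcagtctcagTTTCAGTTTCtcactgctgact
Ifit3, chr19:34583361-34583428, + strand: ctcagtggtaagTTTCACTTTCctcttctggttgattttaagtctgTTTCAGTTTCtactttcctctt
Oas1a, chr5:120907526-120907557, - strand: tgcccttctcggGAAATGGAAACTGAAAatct
Oas3, chr5:120777713-120777746, - strand: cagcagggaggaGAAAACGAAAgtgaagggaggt
Gbp3, chr3:142559987-142560026, + strand: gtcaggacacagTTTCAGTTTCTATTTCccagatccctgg
Rsad2, chr12:26456551-26456584, - strand: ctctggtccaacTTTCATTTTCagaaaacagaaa
Trim30a, chr7:104465208-104465241, - strand: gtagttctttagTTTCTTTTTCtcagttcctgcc
Bst2, chr8:71537575-71537614, - strand: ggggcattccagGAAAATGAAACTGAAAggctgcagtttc
Isg15, chr4:156200863-156200908, - strand: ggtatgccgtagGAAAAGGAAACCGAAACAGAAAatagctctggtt
Gbp2, chr3:142620592-142620625, + strand: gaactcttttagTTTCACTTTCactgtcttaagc

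Ifit1 and Ifit3 each held 2 separate matches, and the outermost began at position -104 and -156 from the start. Their relative Ifit2, the one IFIT gene above background, had no match in the window of either of its 2 RefSeq starts. Oas1a, Gbp3 and Bst2 held overlapping pairs of matches, and Isg15 held 3 that overlap. Bst2 and Trim30a were above background with such elements first found at positions -130 and -36, so the element was not found only beside genes at background.

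**Figure D2:**
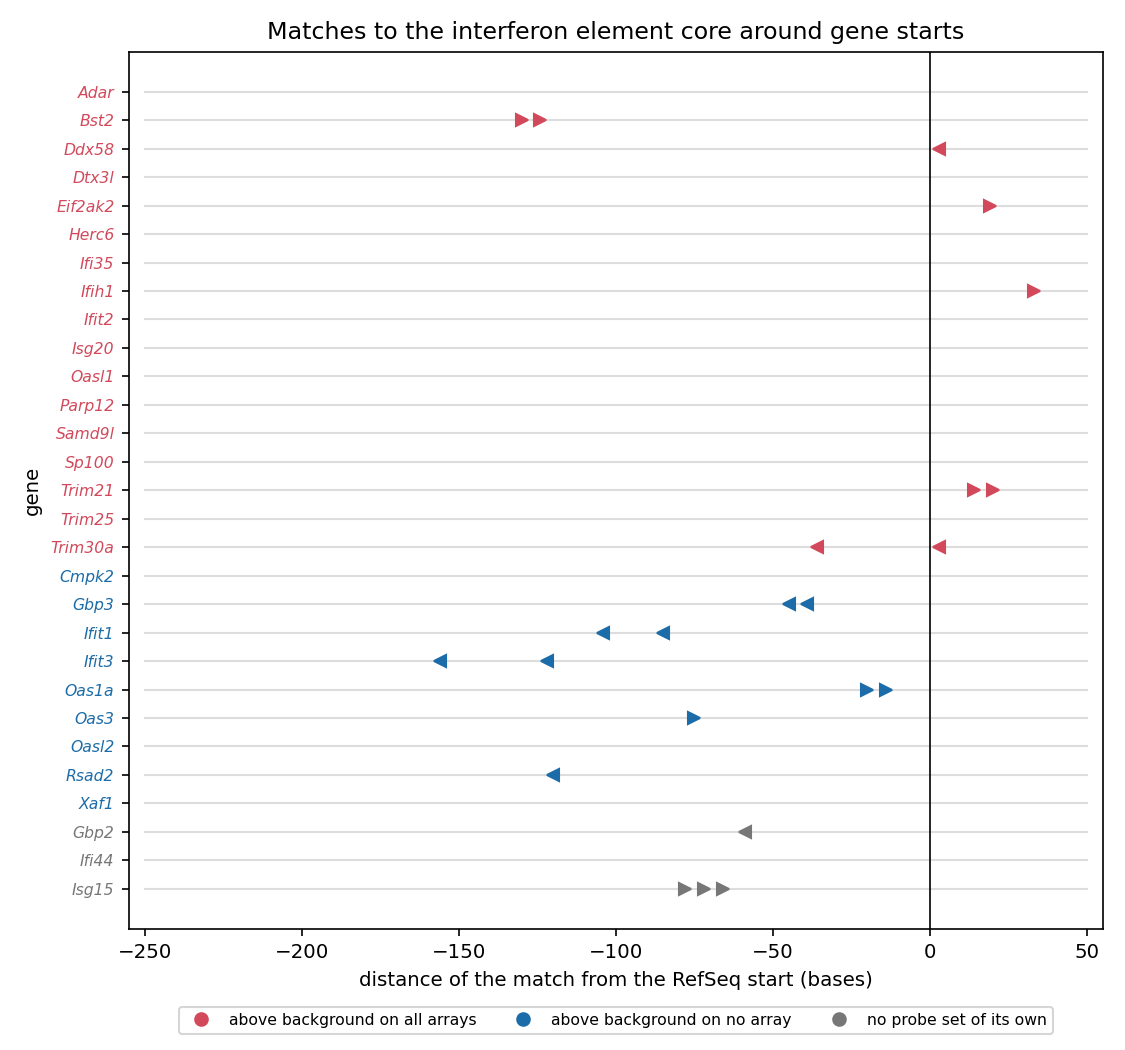
Positions (x axis, bases from the RefSeq start) of matches to the 10-letter interferon element core for the 29 genes with a promoter sequence (rows), pointing right for the gene's own strand and left for the opposite one, at the first base of the match. Colours give the class by array values. Genes above background on no array have their matches before the start, and 4 of the 6 genes above background with a match have all of theirs after it. The pair of Trim30a matches comes from different RefSeq starts.

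Among the genes that make and receive interferon, most receptor and signalling genes were above background and most ligand genes were not. Of 66 other pathway genes, 57 were measured, and 32 of these were over the limit on every array, 22 on none and 3 on some, against 42.4% of all genes on every array and 54.1% on none. Among the ligands, Ifnb1 had 5.11, 5.13 and 4.90, and Ifna2, Ifna4, Ifne, Ifnk and Ifng were also below the limit on every array. Ifnl2, a type III interferon gene, read 7.77, 7.73 and 7.64, above the 95th but below the 99th percentile limit of array 1, and its close copy Ifnl3 is read by a shared probe set. The receptor chains Ifnar1 and Ifnar2 were above background, with 9.81, 10.06 and 10.11 and 9.78, 9.64 and 9.60. The same held for Ifngr1 and Ifngr2, the interferon gamma receptor, whereas Ifnlr1, the type III receptor chain, had 6.26, 6.07 and 6.31.

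Downstream of the receptor, Jak1, Tyk2, Stat2 and Irf9 were all above background. Irf9 had 7.82, 8.09 and 7.88 and Stat2 had 8.83, 9.04 and 8.92. Of 12 genes that lead to interferon production, 7 lay above background (42.4% of all genes did), among them Irf3, Irf7, Mavs, Tmem173 (STING) and Tbk1. Irf7, itself an interferon target, had 8.27, 8.51 and 8.37. Mb21d1, which encodes the DNA sensor cGAS, had 5.61, 5.78 and 5.74, and the endosomal receptors Tlr3, Tlr7 and Tlr9 were below the limit on every array. All 4 genes of restraint were above background, Socs1 among them with 9.80, 9.74 and 9.43.

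Of 23 measured interferon targets outside the 38 genes, 11 were over the limit on every array, 2 on some and 10 on none. These counts are near the shares of all genes, 42.4% on every array and 54.1% on none. Ly6e, a membrane protein that limits coronavirus entry and is also a thymocyte marker, had 12.93, 13.03 and 12.91. Gbp4 had 10.58, 10.88 and 10.71, Helz2 had 9.13, 9.11 and 8.94 and Parp10 had 8.52, 8.74 and 8.60. The membrane proteins Ifitm1, Ifitm2 and Ifitm3 were below the limit on every array, as were Ddx60, Gbp5, Iigp1, Cxcl9 and Cxcl10.

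**Figure D3:**
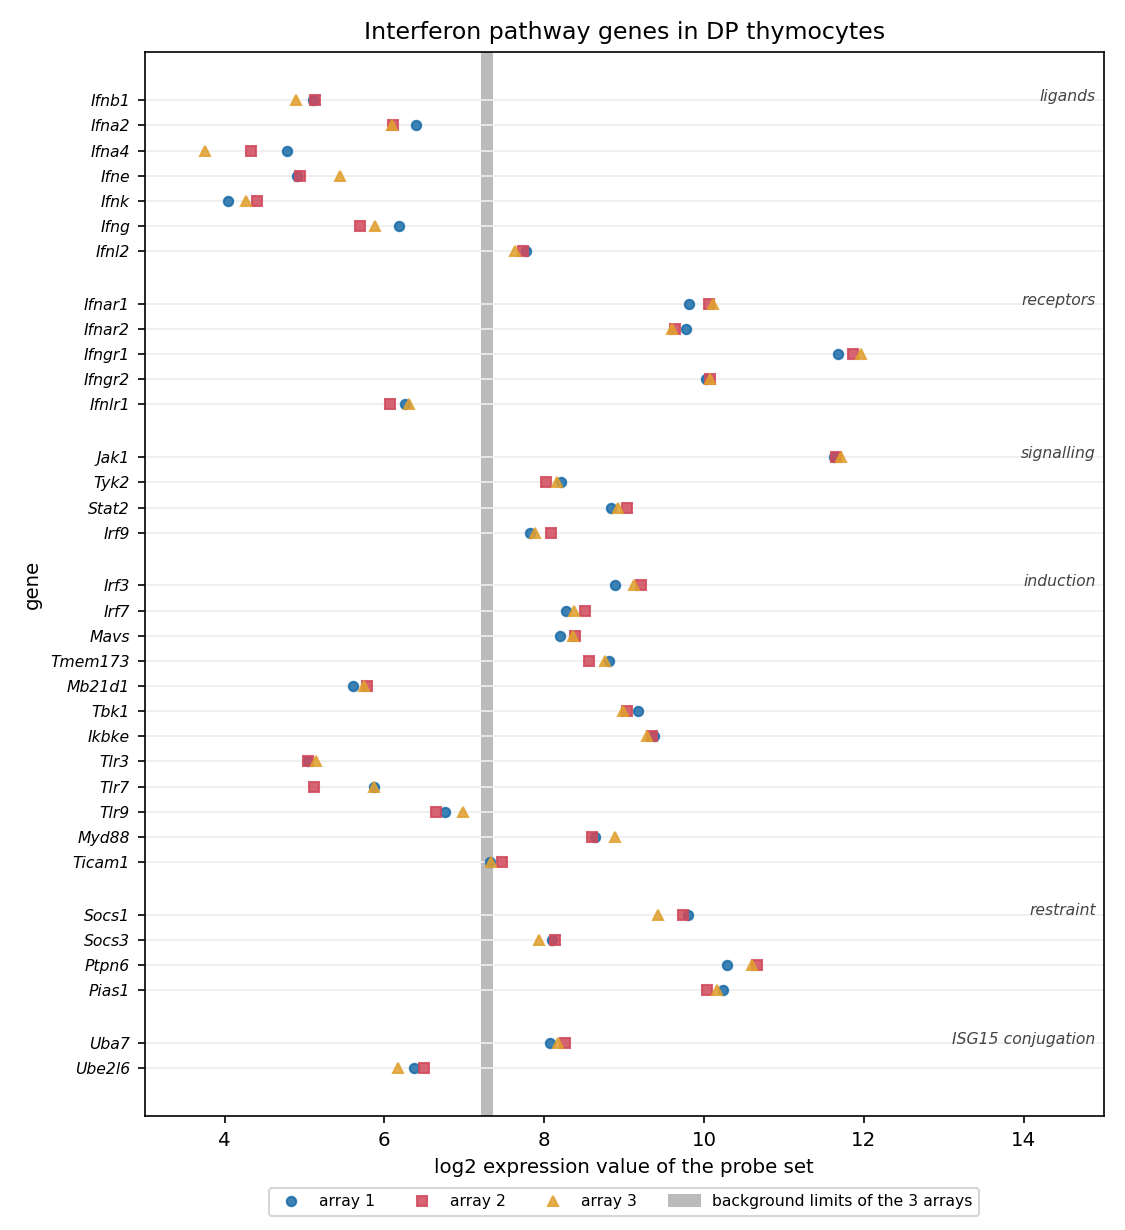
Log2 expression values (x axis) of 34 measured interferon pathway genes other than further targets (rows, grouped by step) on the 3 arrays, with the background limits of 7.22 to 7.35 as a grey band. Ligands other than Ifnl2 lie left of the band, and the receptor chains other than Ifnlr1, the signalling genes and the genes of restraint lie to its right.

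Between cohorts, more of the antiviral genes were highest on array 2 and lowest on array 1 than in any other place. The median SD over 3 arrays was 0.106 for the 35 genes, near the 0.111 of all genes. No gene of the set passed the limma variance test, which compares a probe set's variance with that of probe sets of the same level (Benjamini-Hochberg adjusted p = 0.988 at the lowest). Over all 28944 probe sets the test called 0.0207%, and Fosb, with an SD of 1.25, had an adjusted p of 0.218, so with 3 arrays the absence of calls does not show that the genes were stable. At an unadjusted p under 0.05 the limma variance test picked 1 of the 35 genes, Rtp4 (adjusted p = 0.988), against 4.66% of all probe sets.

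On array 2, 28 of the 35 genes were higher than on array 1, against 52.6% of all genes. The median difference, array 2 minus array 1, was 0.14 log2 units for the set and 0.02 for all genes. Of the 35, 20 had their highest value on array 2, against 33% of all genes, and 20 had their lowest on array 1, against 39.3%. Arrays 1 and 3 held the highest value of 6 and 7 genes, against 34.5% and 29%, and arrays 2 and 3 the lowest of 3 and 9, against 27.8% and 29.4%. The highest value on array 2 and the lowest on array 1 held together for 12 genes of the set, and for 19.8% of all genes. Array 3 was lower than array 2 for 23 genes, against 50.2% of all genes, with a median difference of -0.04 (array 3 minus array 2), and higher than array 1 for 21, against 50.3%. The deviations from the 3-array mean had medians of -0.08, 0.08 and 0.00 on arrays 1, 2 and 3. These differences between single arrays have no test of their own.

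Of the 21 genes above background on all arrays, 16 were higher on array 2 than on array 1, against 50% of all genes above background, and 16 were lower on array 3 than on array 2, against 47.8%. Array 3 was higher than array 1 for 12 of the 21, against 48.8%. Among them 13 were highest on array 2, 5 on array 1 and 1 on array 3, against 29.5%, 39.2% and 27.2%. The lowest value lay on array 1 for 12, on array 2 for 2 and on array 3 for 5, against 40.2%, 28.6% and 27.1%, and 9 were both highest on array 2 and lowest on array 1, against 19.7%.

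Rtp4 differed most between arrays 2 and 1 within the set. Its level on array 2 was 1.51 times that on array 1 and 1.37 times that on array 3, with an SD of 0.31 that exceeded that of 95.8% of genes of the same level. Herc6 reached 1.36 times its array 1 level on array 2 and 1.26 times on array 3. For Zbp1 and Isg20 the level on array 2 was 1.24 and 1.22 times that on array 1. For Usp18 the fold of array 2 over array 1 was at least 1.06, a bound set by the array 1 limit, under which its array 1 value lay. Ifit1 and Ifit3 differed by 0.55 and 0.47 between arrays 2 and 1 in the same direction, at values below background on both arrays, so no fold is given. A difference over 0.5 in that direction was seen for Rtp4, Ifit1 and Usp18, 3 of the 35, against 2.01% of all genes. Across the set, 6 genes had an SD above that of 90% of genes of the same level: Usp18, Herc6, Ifit1, Ifit3, Mx2 and Rtp4. Of these, Ifit1, Ifit3 and Mx2 were below background on every array and Usp18 on arrays 1 and 3. In all, 16 of the 35 had an SD above the median of genes of the same level.

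Many genes of the set departed from the pattern of the 12 genes highest on array 2 and lowest on array 1. Ifit2, Bst2, Ifi35, Oasl1, Ifih1 and Gbp3 were highest on array 1. Oas1a, Oas2, Oas3, Oasl2, Ifit3, Mx1 and Eif2ak2 were highest on array 3, so no OAS gene was highest on array 2. Sp100, Rsad2, Oasl1 and Oas2 differed little, with SDs of 0.02 to 0.04. Outside the set, Parp11 had 7.98, 8.61 and 8.55 and Irf9 and Irf7 were highest on array 2. The chemokine gene Cxcl10 went the other way, with 7.26, 6.25 and 6.38, all below the limit. Of the 57 pathway genes 31 were higher on array 2 than on array 1, a share near the 52.6% of all genes. None of them passed the variance test (limma, adjusted), and 5 had an unadjusted p under 0.05, against 4.66% of all probe sets. Of these genes Ifna4, Tlr7, Ifitm2 and Cxcl10 were below the limit on every array, and Parp11 was above it.

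**Figure D4:**
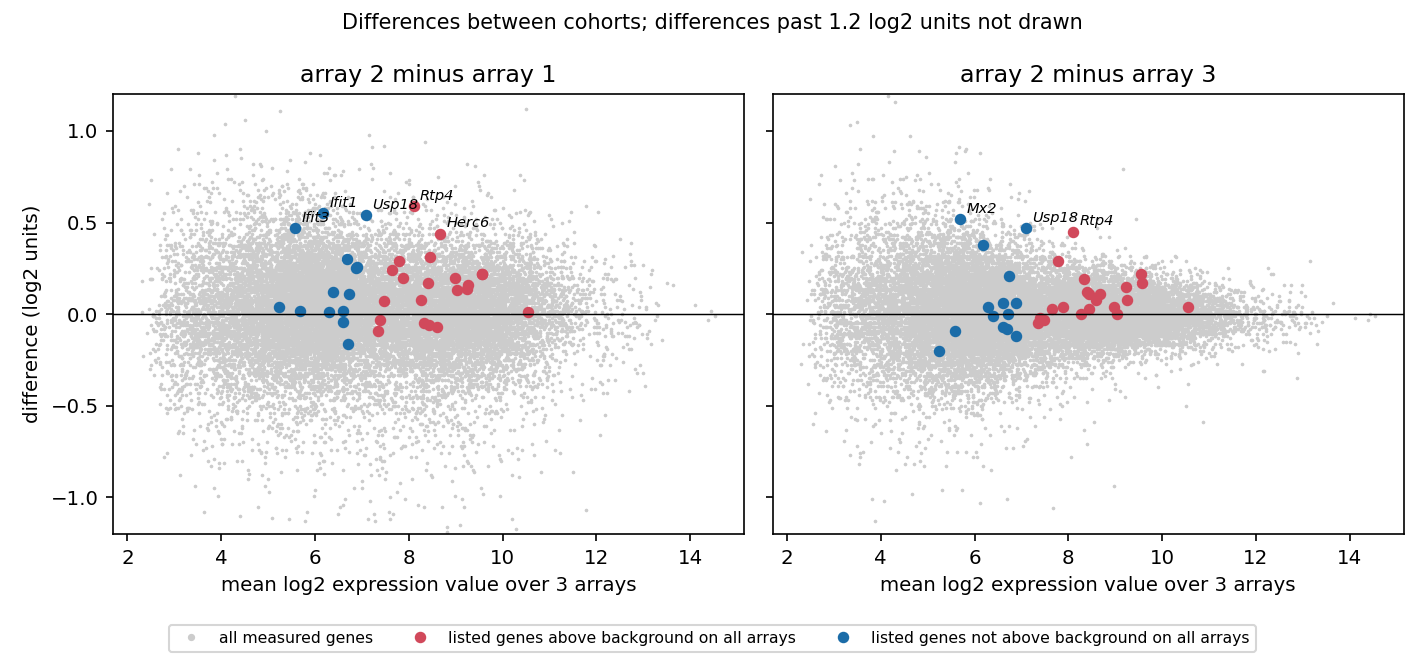
Difference between arrays (y axis, log2 units) against the mean log2 value over 3 arrays (x axis) for all measured genes in grey and the antiviral genes in colour, for array 2 minus array 1 on the left and array 2 minus array 3 on the right. Most antiviral genes lie above 0 in each panel, with Rtp4 at 0.59 and 0.45. Genes with differences past 1.2 log2 units are not drawn.

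Other measures moved between the same arrays. Of 10 macrophage and dendritic markers, 7 were lowest on array 2. Their summed level (log2) was 11.00, 10.04 and 10.50 on arrays 1, 2 and 3, a sum to which Cd74, H2-Aa and H2-Ab1 contribute most, and Itgam was highest on array 2. In that list 2 genes were above background on all arrays, Cd74 and H2-Ab1 of class II antigen presentation, while Csf1r, Itgam, Itgax, Lyz2, Adgre1 and Fcgr1 were on none. Of 7 plasmacytoid dendritic markers, whose cells are the main makers of interferon alpha, Tcf4 (8.65, 8.75 and 8.66) and Ccr9 were above background on all arrays, Cox6a2 (7.20, 7.36 and 7.36) on arrays 2 and 3, and Siglech, Spib, Clec10a and Lair1 on none. The list's summed level was 12.38, 12.55 and 12.47 on arrays 1, 2 and 3, which is mostly Ccr9, a receptor that DP thymocytes also carry. The summed level of the 8 DP markers was 15.18, 15.38 and 15.37 on arrays 1, 2 and 3. Of these markers 7 were lowest on array 1, and Cd3e was highest there, with 12.29, 12.01 and 11.94. The summed level of the antiviral set was 13.28, 13.43 and 13.33, also lowest on array 1. The part of sex, immediate-early genes or cell content in the differences between cohorts was not tested.

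B cell, thymic epithelial and NK cell markers were measured as well. Of 4 B cell markers, Cd79b was above background and Cd79a, Ms4a1 and Pax5 were not, with summed levels of 9.14, 9.14 and 9.23 on arrays 1, 2 and 3. Of 6 thymic epithelial markers, Krt8 exceeded the limit on array 3 alone and the rest on none, with summed levels of 9.0, 9.31 and 9.42. Of 5 NK markers, Nkg7 and Gzma were over the limit on every array and Prf1 on 2 of them, and the summed levels were 9.78, 9.44 and 9.64.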

How the data were processed

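The authors deposited log2 expression values for 35556 probe sets on each of 3 arrays of DP thymocytes. The submitters' processing notes name affy, and the sources used here state neither its version nor the normalization. Medians over all genes were 6.84, 6.86 and 6.85, so a shift in total RNA would not show. The labels do not separate cultures beyond cohorts of littermates, and n = 3 counts these.

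A run of 6612 consecutively numbered probe sets without symbols, taken as controls, was left out. Symbols came from the platform annotation (21789 probe sets with 1, 1621 with several, 12146 with none). Only probe sets with 1 symbol were used, the brightest per gene by its 3-array mean, and each measured antiviral gene had 1. Background used 99 measured of 109 listed organ genes, 4 of which were themselves above it on all arrays. The variance test was an intercept-only limma 3.58.1 fit (R 4.3.3) with a robust, mean-dependent prior and Benjamini-Hochberg adjustment over 28944 probe sets at 0.05, tested on simulated data. Python 3.11.15 with numpy 2.4.6 and pandas 2.3.3 did the rest. SDs at the same level refer to the 500 genes nearest in mean. Every listed gene could be named. The members and lists were chosen with earlier results of these data known. The marker Klk1 was not analysed here. Alternatives were other limits, normalizations, priors and filters, averaged probe sets and leaving out each array.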

Additional observations from a re-analysis of the deposited data

How the results depend on the processing

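The count of antiviral genes above background on all arrays was 21 with quantile normalization, median centring, averaged probe sets or any array left out, 14 with the 99th percentile limit and 22 with the background median plus 1 log2 unit. The 0 calls of the limma variance test held under every prior, filter and left-out array tried, with 0 to 3 genes at an unadjusted p under 0.05. The number of genes higher on array 2 than on array 1 was 28 as deposited, 25 after quantile normalization and 26 after median centring. With only the 21 genes above background, 13 were highest on array 2 and 1 on array 3, and 12 were lowest on array 1 and 5 on array 3. Fewer genes enter this count, and of the 7 genes highest on array 3 in the whole set 6 were below background. Leaving out 1 array lets the other 2 share its places. The number highest on array 1 then ran from 7 to 12 and on array 3 from 9 to 21, and the number lowest on array 2 from 7 to 9 and on array 3 from 12 to 23. A motif shorter by 1 letter at its 3′ end, chosen after the data were seen, matched 18 of 29 genes, against 14, and 9.76% of all genes. With that form 9 of 15 measured genes with a match were above background on all arrays, and 8 of 11 without one. No paired analysis was possible because the arrays form 1 group. With 3 arrays, probe sets near the limit, such as Ifih1 and Oasl1, have no firm side.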
